A study of Homo sapiens with 15 samples.

Results

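Carbonic anhydrases were examined in 3 human intestinal cell lines cultured with and without mechanical stimulation. The genes considered were *CA1*, *CA2*, *CA4*, *CA7*, *CA8*, *CA9*, *CA12* and *CA13*, each by the probe set that the array annotation assigns to that gene alone and, where there are several, the one with the highest mean signal. Of these 8 genes, 7 had such a probe set, among 22392 genes with one in all, and each of the 7 had exactly 1. *CA9* was not analysed here. Expression was measured by Affymetrix microarray in 15 RNA samples, 3 independent experiments for each of 5 groups. HT29-MTX-E12, a goblet-type subclone of the colon cancer line HT29 that makes mucus, and Caco-2, a colon cancer line whose confluent cells come to resemble enterocytes, were grown for 15 days on Transwell membranes. Static wells held 275 µL apical and 1000 µL basolateral medium. Wells kept semi-wet and mechanically stimulated (SWMS) held 75 µL and 850 µL, respectively, and were shaken at 65 rpm, so medium volume and shaking cannot be told apart. LS174T, a mucin-producing colon carcinoma line, was grown for 15 days under static conditions on plates, so in its comparisons the line and the plate or membrane cannot be told apart. Values are log2 intensities, and a difference of 1 is a doubling of signal.

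Carbonic anhydrases interconvert carbon dioxide and water with bicarbonate and a proton. In the intestine this reaction feeds bicarbonate secretion, chloride exchange and control of pH at the cell surface. Isoforms differ in where they act. CA1, CA2, CA7 and CA13 are cytosolic enzymes, CA4 is tethered to the outer membrane by a lipid anchor, and CA9 and CA12 span the membrane with the catalytic domain outside the cell. CA8 resembles the cytosolic enzymes but lacks catalytic activity. *CA9* and *CA12* are known as genes that hypoxia can induce. The genes of *CA13*, *CA1*, *CA3* and *CA2* follow one another on chromosome 8 in RefSeq's GRCh38.p14, with no other protein-coding gene between them.

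The arrays were alike in distribution. Their median log2 signal ran from 3.72 to 3.85, and each array had a correlation of 0.972 to 0.988 with the rest of its group. Both the highest median and the lowest correlation belonged to Caco-2 SWMS replicate 1, and the next lowest correlation was 0.984. A group mean under 4 is read here as low signal, as 28470 of the 53617 probe sets had an overall mean below it. *MUC5AC*, the gel-forming mucin of gastric-type mucus, averaged 11.77 in static HT29-MTX-E12, 7.21 in LS174T and 4.50 in static Caco-2, and the epithelial gene *EPCAM* was at least 10.80 in every group. Of the 5 epithelial markers, *KRT20* alone had a group mean under 4, at 3.79 in LS174T. It was 9.29 in static Caco-2 and 6.80 in Caco-2 under SWMS. Red blood cells also make CA1 and CA2. All 3 measured of 5 erythroid markers had group means under 4, and the haemoglobin gene *HBB* lay between 2.18 and 2.35. Of 4 measured of 5 leukocyte markers, *PTPRC* (1.63 to 1.97) and *CD3E* (2.67 to 3.07) had group means under 4, whereas *CD68* (9.49 to 10.44) and *LYZ* (8.02 to 11.72), which epithelial cells can also express, were high in every group. Of 4 measured of 5 fibroblast markers, *DCN* (1.76 to 2.01) and *COL1A2* (2.89 to 3.10) were under 4, *COL1A1* lay between 4.55 and 5.80, and *LUM* was above 4 in static Caco-2 alone, at 4.50. Both measured of 3 endothelial markers were under 4 in every group. The part of these levels in the results was not tested. The RNA came from whole cultures, so that fewer cells of a type and less RNA per cell cannot be told apart.

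Under SWMS conditions 2 carbonic anhydrase genes changed in Caco-2, and none passed the test in HT29-MTX-E12. In Caco-2, *CA2* rose and *CA12* fell, each by about 1 unit on the log2 scale, whereas *CA1*, *CA4*, *CA7*, *CA8* and *CA13* did not pass the test. A gene was called at an adjusted p under 0.05 in limma, with p-values adjusted over all probe sets. In Caco-2, 1 of 7 genes was called higher and 1 lower, where 3.02% of all genes were called higher and 6.72% lower. In HT29-MTX-E12, 0 of 7 were called by limma, where 3.66% of all genes were called higher and 1.87% lower. An unadjusted limma p under 0.05 was found for 0 of the 7. The methods use an intensity-based moderated statistic (IBMT) at a p under 0.05. Here IBMT was called at an adjusted p under 0.05, which also gave 0 of 7, so the study's own criterion was not applied. The median difference of the 7 genes was -0.18 in HT29-MTX-E12 and -0.06 in Caco-2, beside -0.02 for all genes in both lines. The difference between the responses of the lines, a contrast of its own, was called for *CA2* and *CA12*. That is 1 of 7 genes in each direction, where 3.58% of all genes had a response called higher in HT29-MTX-E12 and 0.911% one called lower.

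**Figure D1:**
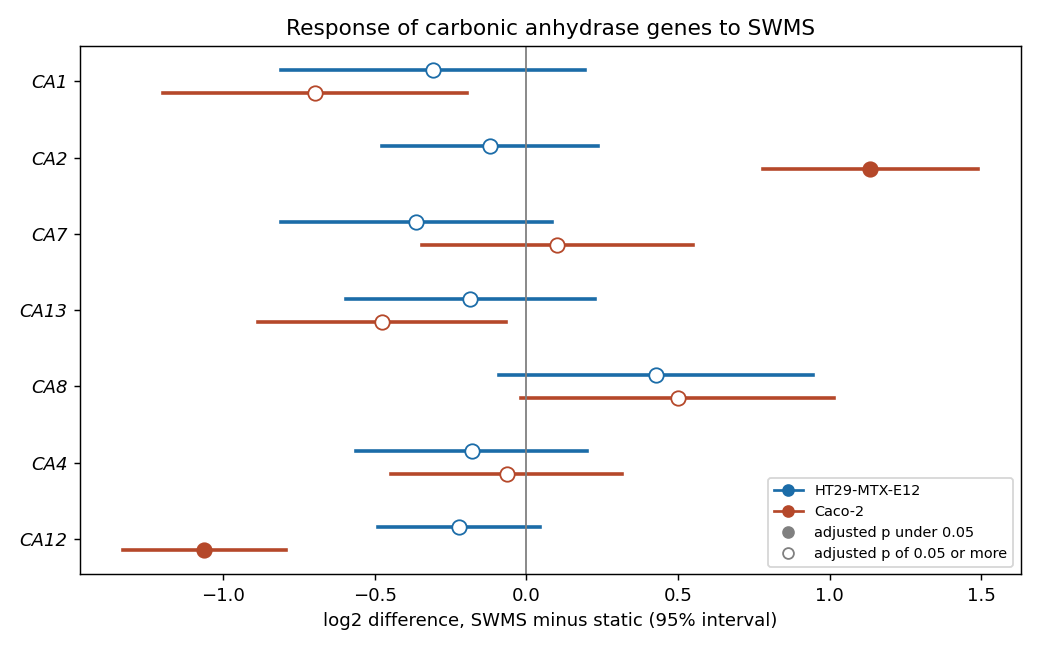
Log2 difference of SWMS minus static (x axis) with its 95% interval for each of 7 carbonic anhydrase genes (y axis), in HT29-MTX-E12 (blue) and Caco-2 (red), 3 arrays per group. Filled points mark an adjusted p under 0.05: *CA2* at 1.13 and *CA12* at -1.06, both in Caco-2.

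Between the static lines, *CA2* and *CA12* were called in every comparison and *CA13* only in those with Caco-2. *CA1* and *CA8*, with means under 4 in every group, were called only in LS174T against static Caco-2. In static Caco-2 against static HT29-MTX-E12, *CA13* was higher and *CA2* and *CA12* were lower, 1 and 2 of 7 genes, where 18.4% of all genes were called higher and 18.1% lower. In LS174T against static HT29-MTX-E12, *CA2* and *CA12* were lower and no gene was higher, where 15.1% of all genes were called lower and 16.9% higher. In LS174T against static Caco-2, *CA8* and *CA12* were higher and *CA1*, *CA2* and *CA13* were lower, where 18.5% of all genes were called higher and 16.9% lower. Each pair of these comparisons shares a group of arrays, and they are therefore not independent of each other.

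**Figure D2:**
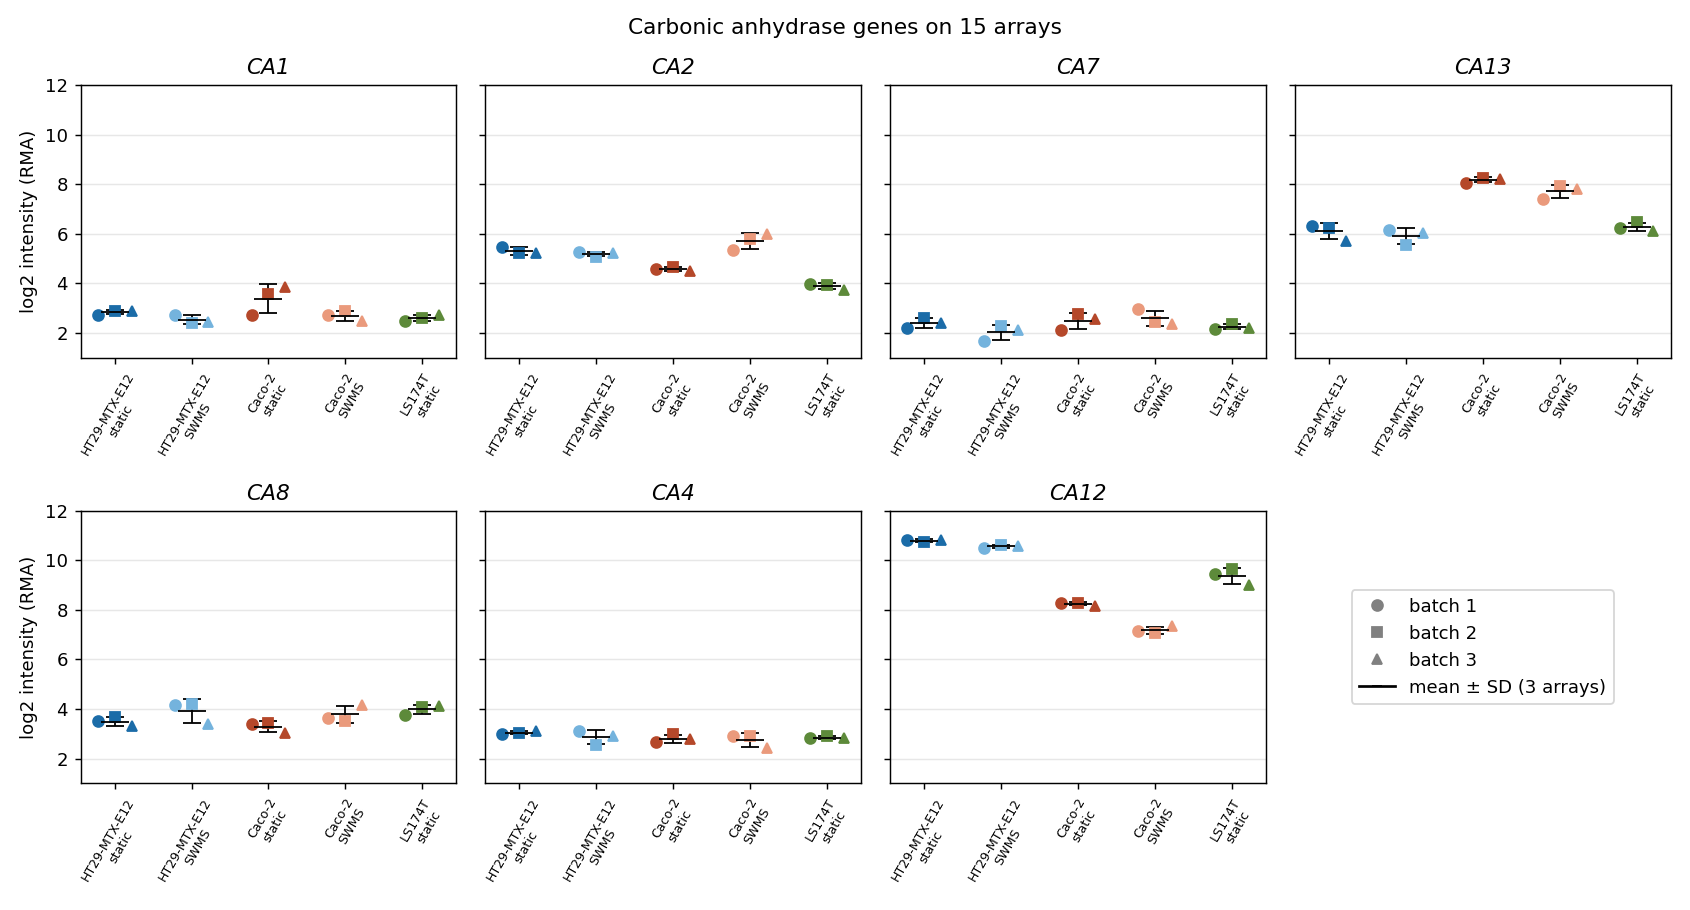
Log2 intensity (y axis) of 7 carbonic anhydrase genes on all 15 arrays, with 5 groups on the x axis of each panel, the marker shape giving the experiment batch and black bars the mean ± SD of 3 arrays. Group means of *CA12* range from 10.80 in static HT29-MTX-E12 to 7.18 in Caco-2 under SWMS, *CA13* is highest in static Caco-2 at 8.18, and *CA1*, *CA4*, *CA7* and *CA8* have means under 4 in every group.

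*CA12*, the transmembrane isoform, had the widest span of group means of the 7 genes, 3.61 on the log2 scale. Its start site is on chromosome 15, and the sequence around it is shown because *CA12* is the measured member known to respond to hypoxia. The RefSeq window of 300 bases, chr15:63381797-63382096 on the minus strand of GRCh38.p14, runs from 250 bases before the start to 50 bases after it, and capitals mark the core of the hypoxia response element, ACGTG or GCGTG on either strand.
CA12: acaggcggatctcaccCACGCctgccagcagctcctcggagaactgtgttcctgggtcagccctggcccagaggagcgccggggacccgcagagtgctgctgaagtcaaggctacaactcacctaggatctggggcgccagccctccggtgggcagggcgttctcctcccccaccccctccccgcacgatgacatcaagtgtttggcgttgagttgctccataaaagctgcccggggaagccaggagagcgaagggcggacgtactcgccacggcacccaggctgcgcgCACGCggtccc
The window held 2 matches, both GCGTG on the opposite strand, with the first base 234 bases before and 39 bases after the start. At least 1 match is common, as 48.4% of 35116 promoter windows hold one and 23.1% hold 2 or more. Of the 56 windows of hypoxia-induced genes, 76.8% hold one and 50.0% hold 2 or more. Of the other members, the 2 windows of *CA7* held 0 and 3 matches and that of *CA9* held 1. No window was available for *CA1*, *CA2*, *CA4*, *CA8* and *CA13*, which were therefore not searched. A match is a description of the letters and not a measured site.

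In static HT29-MTX-E12 the log2 intensity of *CA12* was 10.81, 10.75 and 10.83 in batches 1, 2 and 3, and under SWMS it was 10.51, 10.62 and 10.59. Every SWMS array lay below every static array, by a small distance. The difference of -0.22 (SE 0.13, 95% interval -0.49 to 0.05) did not pass the test (limma adjusted p = 0.499). Its SE draws on the spread of all groups, with an SD of 0.04 and 0.06 in these groups and 0.33 in LS174T. Over the 8 alternatives the adjusted p ran from 0.0661 to 0.593, so the test passed in none but came near the threshold in some settings more than in others. In static Caco-2 the values were 8.28, 8.29 and 8.17, and under SWMS they were 7.13, 7.08 and 7.34. These groups stood well apart, and the fall was present in every batch. It amounted to -1.06 (SE 0.13, 95% interval -1.33 to -0.79), so that the static level was 2.09-fold higher, at a limma adjusted p of 9.91e-05. Within batches 1, 2 and 3 the difference was -1.14, -1.21 and -0.83.

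The response of *CA12* was larger in Caco-2 than in HT29-MTX-E12. The difference between the responses was 0.84 (SE 0.18, 95% interval 0.46 to 1.22, limma adjusted p = 0.0191), and within batches it was 0.84, 1.09 and 0.59. Without Caco-2 static replicate 2 it was 0.82 with an adjusted p of 0.0511, without HT29-MTX-E12 SWMS replicate 2 it was 0.82 with an adjusted p of 0.0526, and without the intensity trend the adjusted p was 0.0533. The level itself also separated the lines. Static HT29-MTX-E12 had a level 5.86-fold that of static Caco-2, a difference of -2.55 for Caco-2 (SE 0.13, limma adjusted p = 7.23e-10). LS174T, at 9.46, 9.63 and 9.00, lay between them, 1.43 below static HT29-MTX-E12 on the log2 scale (adjusted p = 6.68e-07) and 1.12 above static Caco-2 (adjusted p = 5.84e-06). In order of level the groups were static HT29-MTX-E12, SWMS HT29-MTX-E12, LS174T, static Caco-2 and SWMS Caco-2, and no neighbours in that order overlapped.

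*CA4* encodes the lipid-anchored isoform of the cell surface. Its signal was low throughout, from 2.43 to 3.13 over all 15 arrays, and the 5 group means spanned only 0.30. All neighbouring groups overlapped, and no comparison passed the test. The SWMS difference was -0.18 (95% interval -0.56 to 0.20) in HT29-MTX-E12 and -0.06 (95% interval -0.45 to 0.32) in Caco-2.

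*CA2* encodes the cytosolic isoform with very high catalytic rate. In static Caco-2 its log2 intensity was 4.57, 4.65 and 4.48, and under SWMS it was 5.35, 5.78 and 5.98. Every SWMS array was above every static array. The rise of 1.13 (SE 0.17, 95% interval 0.78 to 1.49) is 2.19-fold, with a limma adjusted p of 0.000609, and within batches 1, 2 and 3 it was 0.77, 1.13 and 1.50. In HT29-MTX-E12 the static values were 5.48, 5.21 and 5.22 and the SWMS values 5.27, 5.08 and 5.20. These groups overlapped, and the difference was -0.12 (95% interval -0.48 to 0.23, limma adjusted p = 0.849). The responses differed between lines by -1.25 (SE 0.23, 95% interval -1.76 to -0.75, limma adjusted p = 0.00858), with -0.98, -1.26 and -1.52 within batches.

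Under static conditions *CA2* was lower in Caco-2 than in HT29-MTX-E12, with a difference of -0.73 (limma adjusted p = 0.00331), whereas in Caco-2 under SWMS its values overlapped those of static HT29-MTX-E12 and lay above those of HT29-MTX-E12 under SWMS. LS174T, at 3.96, 3.95 and 3.74, had the lowest level of the 5 groups, a low signal under 4 on all 3 arrays. It differed from static HT29-MTX-E12 by -1.42 (adjusted p = 1.25e-05) and from static Caco-2 by -0.68 (adjusted p = 0.00566). Neither of these groups overlapped it.

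**Figure D3:**
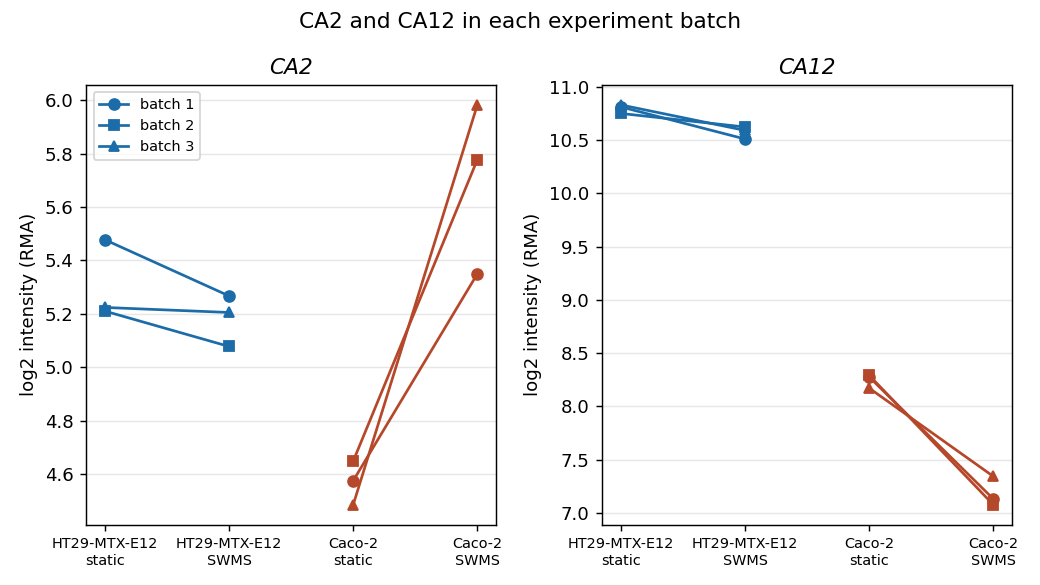
Log2 intensity (y axis, scaled to each gene) of *CA2* (left) and *CA12* (right) under static and SWMS conditions (x axis), with lines joining the arrays of one experiment batch, HT29-MTX-E12 in blue and Caco-2 in red. In Caco-2 all 3 lines rise for *CA2*, by 0.77 to 1.50, and all 3 fall for *CA12*, by -0.83 to -1.21.

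In Caco-2, levels of enterocyte-like markers were also lower under SWMS, a difference that was not tested. The summed log2 level of the 5 markers *VIL1*, *SI*, *ALPI*, *APOA4* and *FABP2* was 47.3 to 48.3 on the static arrays and 35.6 to 37.1 on the SWMS arrays. All 5 had a lower mean under SWMS, and the lipid transport genes *APOA4* (10.90 and 6.02) and *FABP2* (8.04 and 4.02) differed most. *SI* (10.78 and 10.35) and *VIL1* (10.96 and 10.59) differed least. In HT29-MTX-E12 the sum was 24.3 to 25.6 on static and 23.8 to 25.3 on SWMS arrays. The summed level of 3 erythroid markers in Caco-2 was 8.04 to 8.18 on static and 8.01 to 8.80 on SWMS arrays, with *HBB* at 2.34 and 2.35. The part of enterocyte traits in the changes of *CA2* and *CA12* was not tested.

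*CA13* encodes a further cytosolic isoform, and its level was highest in Caco-2. The log2 intensity was 8.06, 8.27 and 8.22 in static Caco-2 and 7.42, 7.91 and 7.80 under SWMS. These did not overlap, but the difference of -0.48 (SE 0.19, 95% interval -0.88 to -0.07) missed the threshold after adjustment (unadjusted p = 0.0259, limma adjusted p = 0.196). The difference lay below 0 in all 3 batches, at -0.64, -0.36 and -0.43. In HT29-MTX-E12 the static values of 6.32, 6.25 and 5.72 and the SWMS values of 6.15, 5.55 and 6.04 overlapped, with a difference of -0.18 (95% interval -0.59 to 0.22). The responses of the lines differed by 0.29 (95% interval -0.29 to 0.87, limma adjusted p = 0.727).

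Static Caco-2 had 4.24-fold the *CA13* level of static HT29-MTX-E12, a difference of 2.08 (limma adjusted p = 6.67e-07). LS174T, at 6.23, 6.45 and 6.12, was lower than static Caco-2, with a difference of -1.91 (adjusted p = 1.73e-06). It overlapped HT29-MTX-E12, from which it differed by 0.17 (95% interval -0.24 to 0.58). *CA2* and *CA13*, both cytosolic and both in the cluster on chromosome 8, thus differed in opposite directions between static Caco-2 and static HT29-MTX-E12. In the same comparison *CA3* of that cluster was called higher in Caco-2, at 0.94 (limma adjusted p = 0.00235). *CA1* differed by 0.55 and was not called (adjusted p = 0.104).

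*CA1*, the cytosolic isoform known from colonic epithelium and red blood cells, had low signal in every group. In static Caco-2 its log2 intensity was 2.74, 3.56 and 3.86, and under SWMS it was 2.74, 2.87 and 2.46. Batches 2 and 3 of static Caco-2 were the highest of all 15 arrays, and batch 1 was not among them. The SWMS difference was -0.70 (95% interval -1.20 to -0.20, limma adjusted p = 0.106), from 0, -0.69 and -1.40 within batches. Without Caco-2 static replicate 1 it was -1.02, with an adjusted p of 0.00491. In HT29-MTX-E12 the values were 2.74, 2.89 and 2.87 under static and 2.74, 2.41 and 2.44 under SWMS conditions, a difference of -0.31 (adjusted p = 0.661).

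The *CA1* value of 2.74 was identical to the last digit on 5 of the 15 arrays, namely batch 1 of all 4 Transwell groups and batch 3 of LS174T. The 0 within batch 1 is therefore the difference of the same value. Such sharing by at least 5 arrays occurred in 2.07% of all probe sets, in 3.55% of those with a mean under 4 and in 0.394% of the rest. Its part in the result was not tested. *CA1* in LS174T, at 2.47, 2.60 and 2.74, differed from static Caco-2 by -0.78 (limma adjusted p = 0.0213). This call was lost without Caco-2 static replicate 2 (adjusted p = 0.0810), Caco-2 static replicate 3 (0.116), LS174T replicate 1 (0.0771) or LS174T replicate 2 (0.0525). The difference between static Caco-2 and static HT29-MTX-E12 was 0.55 (adjusted p = 0.104), and 0.87 without Caco-2 static replicate 1 (adjusted p = 0.00273).

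*CA7*, a cytosolic isoform best known from brain and muscle, lay between 1.69 and 2.95 on all 15 arrays. It passed the test in no comparison. Its SWMS difference was -0.36 (95% interval -0.81 to 0.08) in HT29-MTX-E12, below 0 in all 3 batches, and 0.10 (95% interval -0.35 to 0.55) in Caco-2, where only batch 1 lay above 0.

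*CA8*, the isoform without catalytic activity, binds a receptor that releases calcium from internal stores. Its log2 intensity was 3.50, 3.66 and 3.33 in static HT29-MTX-E12 and 4.17, 4.22 and 3.38 under SWMS. In Caco-2 it was 3.38, 3.46 and 3.03 under static and 3.66, 3.54 and 4.17 under SWMS conditions. The Caco-2 groups did not overlap and the HT29-MTX-E12 groups did. The difference was 0.43 (95% interval -0.09 to 0.94, limma adjusted p = 0.500) in HT29-MTX-E12 and 0.50 (95% interval -0.02 to 1.02, adjusted p = 0.307) in Caco-2, above 0 in all 3 batches of each line. LS174T, at 3.76, 4.07 and 4.12, was higher than static Caco-2 by 0.69 at a limma adjusted p of 0.0472. That call was lost with the batch as a block (adjusted p = 0.0630), with array weights (0.0520) and on leaving out any of 10 arrays (0.0508 to 0.179). It was kept on leaving out SWMS replicate 2 or 3 of either line or LS174T replicate 1.

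No other gene of the family passed the test under SWMS. Of *CA3*, *CA5A*, *CA5B*, *CA6*, *CA10*, *CA11* and *CA14*, 0 of 7 were called under SWMS in either line by limma or IBMT. By limma, 3.66% of all genes were called higher and 1.87% lower in HT29-MTX-E12, and 3.02% and 6.72% in Caco-2. In limma, 1 of these 7 genes in HT29-MTX-E12 and 2 in Caco-2 had an unadjusted p under 0.05. Their median difference was -0.19 in HT29-MTX-E12 and -0.16 in Caco-2. *CA3*, a cytosolic isoform of muscle, differed by -0.56 in HT29-MTX-E12 (limma adjusted p = 0.197) and -0.48 in Caco-2 (adjusted p = 0.219), below 0 in every batch of both lines. *CA5A*, a mitochondrial isoform, differed by 0.72 in Caco-2 (adjusted p = 0.235), with batches at 0.63, 1.09 and 0.43. *CA5B*, the other mitochondrial isoform, differed by -0.19 and -0.16 in HT29-MTX-E12 and Caco-2, respectively. The secreted isoform *CA6*, the transmembrane isoform *CA14* and the inactive *CA10* and *CA11* had differences from -0.25 (*CA11* in Caco-2) to 0.13 (*CA6* in Caco-2).

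Carbonic anhydrases supply or consume the bicarbonate and protons that membrane transporters carry, and 22 of 25 listed transport genes were measured. In HT29-MTX-E12, 1 of the 22 was higher and 2 were lower under SWMS, where 3.66% and 1.87% of all genes were. In Caco-2, 1 was higher and 5 were lower, where 3.02% and 6.72% of all genes were. The median difference was -0.04 and -0.10, respectively, beside -0.02 for all genes in both lines. *CFTR*, the apical channel for chloride and bicarbonate, rose by 0.76 in HT29-MTX-E12 (limma adjusted p = 0.000414) and by 0.79 in Caco-2 (adjusted p = 0.000178). *SLC4A4*, the sodium bicarbonate cotransporter to which CA2 is known to be linked in function, fell by 0.93 in HT29-MTX-E12 (adjusted p = 0.000831) and by 1.13 in Caco-2 (adjusted p = 0.000101). In Caco-2, *CA2* and *SLC4A4* thus moved in opposite directions. *BSG*, the chaperone of lactate transporters, fell by 0.34 in HT29-MTX-E12 (adjusted p = 0.00640) and by 0.38 in Caco-2 (adjusted p = 0.00180).

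*SLC26A3*, the apical exchanger of chloride for bicarbonate, fell by 1.80 in Caco-2 (limma adjusted p = 1.49e-05). Its log2 intensity was 11.16, 11.08 and 11.17 under static and 9.39, 9.30 and 9.32 under SWMS conditions. In HT29-MTX-E12 its group means were 2.96 and 2.61, a low signal, with a difference of -0.35 (adjusted p = 0.404). *SLC16A4*, of the monocarboxylate transporter family, differed by 0.70 in HT29-MTX-E12 (adjusted p = 0.0694) and fell by 0.90 in Caco-2 (adjusted p = 0.0106), and these responses differed by 1.60 (adjusted p = 0.00464). The fifth gene lower in Caco-2 was *SLC26A6*, another anion exchanger, at -0.55 (adjusted p = 0.0106), which is named after its value was seen.

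As *CA12* is a hypoxia-responsive isoform, it was set beside 37 measured of 38 listed genes known to be induced by hypoxia. In Caco-2, 24 of the 37 were lower and 0 higher under SWMS, with a median difference of -1.03 and 35 below 0, where 6.72% of all genes were lower and 3.02% higher and their median was -0.02. *CA12*, at -1.06, lay in the middle of them, with 18 genes further below. In HT29-MTX-E12, 8 were lower and 0 higher, where 1.87% of all genes were lower and 3.66% higher. The median was -0.30, 30 were below 0, and 22 lay below *CA12* at -0.22. The smallest adjusted p-values in Caco-2 belonged to *SLC2A1*, the glucose transporter GLUT1, at -1.20 (limma adjusted p = 2.92e-07), the collagen crosslinking enzyme *LOX* at -2.81 (adjusted p = 1.43e-06), the collagen lysyl hydroxylase *PLOD2* at -1.26 (adjusted p = 4.80e-06) and *EGLN1*, an oxygen-sensing hydroxylase, at -1.28 (adjusted p = 9.24e-06).

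In HT29-MTX-E12 the smallest adjusted p-values of the list belonged to the collagen prolyl hydroxylase *P4HA1* at -0.97 (limma adjusted p = 4.41e-05), *SLC2A1* at -0.55 (adjusted p = 0.000490), the hexokinase *HK2* at -1.17 (adjusted p = 0.000575) and *PLOD2* at -0.69 (adjusted p = 0.00131). The difference between the responses of the lines was called higher in HT29-MTX-E12 for 13 of the 37 and lower for 1, where 3.58% of all genes were called higher and 0.911% lower. *SLC2A1*, at 0.65 (adjusted p = 0.00291), and *LOX*, at 3.09 (adjusted p = 5.03e-05), were among the 13, as was *EGLN1* at 0.94 (adjusted p = 0.00539), beside 0.84 for *CA12*. *LOX* had low signal in HT29-MTX-E12, with static and SWMS means of 2.98 and 3.26. So did *SLC2A3* of the 37, at 2.88 and 2.61, and *STC2* was near 4 there, at 3.95 and 4.14. In Caco-2, *EGLN3*, the gene called lower, had low means of 3.39 and 3.88. At such signal a fall has little room to show, which limits the comparison of responses for these genes. Oxygen at the cells was not measured here, and its part in the change of *CA12* was not tested.

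**Figure D4:**
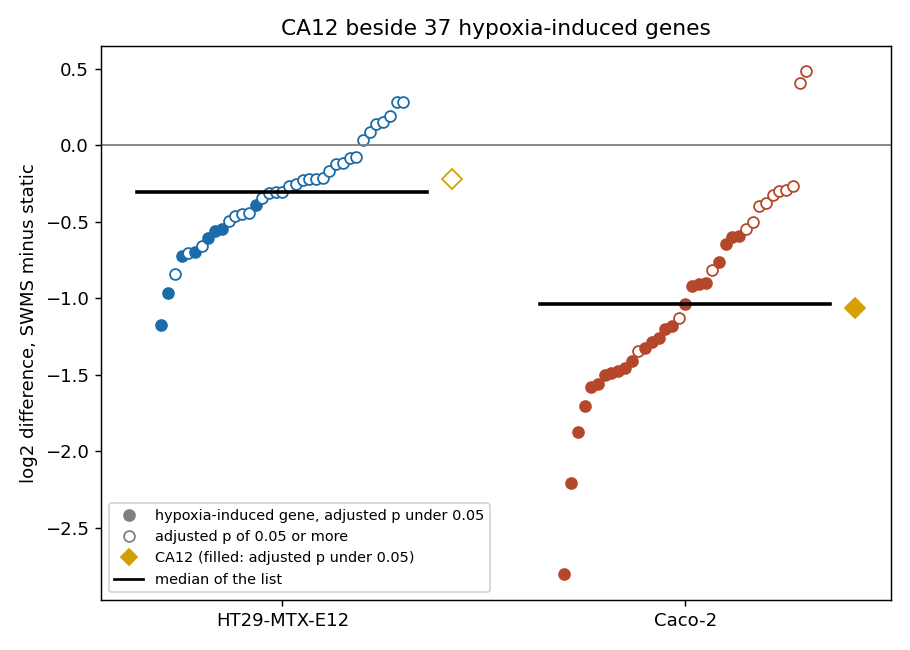
Log2 difference of SWMS minus static (y axis) of 37 hypoxia-induced genes in HT29-MTX-E12 (blue) and Caco-2 (red), sorted within each line, with a black line at the median and filled circles for an adjusted p under 0.05. *CA12* (yellow diamond) lies at -0.22 beside a median of -0.30 in HT29-MTX-E12, where its diamond is open, and at -1.06 beside a median of -1.03 in Caco-2.

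For the 3 genes whose group means spanned at least 1, the genes with the most similar pattern over the 5 group means were sought among 7197 genes of that span, by the root mean square difference after centring each gene. The pattern of *CA2* was closest to that of *H2BC5*, a histone gene, at 0.14, and of *PPP2R3B-AS1* at 0.17. The closest to *CA12* were *C19orf33* at 0.19 and *MRPS30-DT* at 0.20. The closest to *CA13* were *TULP4* and *TMEM82*, at 0.061 and 0.066. *CA13* thus had nearer matches than *CA2* or *CA12*, and *TULP4* ran from 9.01 in static Caco-2 through 8.57 under SWMS to 6.89 in SWMS HT29-MTX-E12. These are descriptions over 5 points.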

How the data were processed

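RNA was hybridised to Affymetrix arrays, and the authors made the deposited log2 intensities by robust multi-array average (RMA): background correction, quantile normalisation over arrays and a summary per probe set, on a scale where differences between probe sets also reflect the probes. Arrays have no read depth, and their number limits the precision. Of 53617 probe sets, 23866 name 1 gene, 1852 several (none a carbonic anhydrase) and 27899 none. 22560 symbols were updated by gene ID.

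The model had a mean for each group over all 15 arrays (limma 3.58.1, R 4.3.3), with an intensity trend, 10 residual degrees of freedom, two-sided tests and adjustment by Benjamini and Hochberg over all probe sets. Samples were grouped by their labels. Members and lists were chosen with earlier results of these data known. Named were all carbonic anhydrases, the 4 transport and the 4 hypoxia genes with the smallest adjusted p in each SWMS comparison, and the 2 nearest patterns of each member spanning at least 1. The fit was tested on simulated data.

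The labels give a batch number, which was taken as the replicate number and as the experiment that pairs the samples. Their separate sample number differs from it for some samples. Deviations from the group means of same-numbered static and SWMS arrays correlated at 0.04, -9.07e-05 and 0.05 for HT29-MTX-E12 and at -0.05, -0.10 and -0.01 for Caco-2. The methods name no block, so it was an alternative, beside array weights, IBMT (loess span 0.3), no intensity trend, each line alone, median-centred arrays, a filter at a group mean of 4, the mean of a gene's probe sets and leaving out each array.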

Additional observations from a re-analysis of the deposited data

Results flagged for a closer look

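The SWMS response differed between HT29-MTX-E12 and Caco-2 for 2 of the 7 genes by a test of the difference itself, taken as the HT29-MTX-E12 response minus the Caco-2 response. Of all genes, 3.58% had a difference called higher and 0.911% one called lower. For *CA2* it was -1.25 on the log2 scale (limma adjusted p = 0.00858), with 3 of 3 batches below 0. For *CA12* it was 0.84 (limma adjusted p = 0.0191), with 3 of 3 batches above 0. The *CA12* call was lost without the intensity trend (adjusted p = 0.0533), Caco-2 static replicate 2 (0.0511) or HT29-MTX-E12 SWMS replicate 2 (0.0526).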

How the results depend on the processing

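In Caco-2 the rise of *CA2* and the fall of *CA12* were called under all 8 alternatives and on leaving out any of the 15 arrays, with adjusted p-values of at most 0.0298 for *CA2* and 0.00490 for *CA12*. With the replicate block no call of the 7 genes changed except that of *CA8* in LS174T against static Caco-2, at 0.69 with an adjusted p of 0.0630. Of the values of single genes over all alternatives, 879 kept their direction and side of the threshold, 19 lost the call, 2 gained it and 14 changed sign.

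The count of genes whose responses differed between the lines was 2, and 1 without the intensity trend, which lost *CA12*. The count in LS174T against static Caco-2 was 5, and 3 when only probe sets with a group mean of at least 4 were kept, which left 3 of the 7 genes. Leaving out an array gave counts of 1 to 2 for the first and 3 to 5 for the second. The number of hypoxia genes called in HT29-MTX-E12, 8, then ranged from 5 to 9, and was 5 without static replicate 2, static replicate 3 or SWMS replicate 3.

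The sign changes were all among values that did not pass the test. *CA7* under SWMS in Caco-2 was 0.10, -0.017 with array weights and -0.079 to 0.239 on leaving out an array. On leaving out an array, *CA4* ranged from -0.147 to 0.096 under SWMS in Caco-2, from -0.276 to 0.037 in the difference between responses and from -0.031 to 0.128 in LS174T against static Caco-2. *CA7* in static Caco-2 against static HT29-MTX-E12 ranged from -0.048 to 0.263, *CA8* in the difference between responses from -0.22 to 0.20, and *CA13* in LS174T against static HT29-MTX-E12 from -0.016 to 0.285. The cause was not tested. Median centring moved the median of all genes by at most 0.035. With signal under 4 in every group, *CA1*, *CA4*, *CA7* and *CA8* carry little information on level.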
